A study of Mus musculus with 30 samples.

Results

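The comparison described here is the net change of the first day in a retinoic acid time course, within 1 set of arrays. It sets the 3 arrays titled 24 h A, B and C against the 3 arrays titled 8 h A, B and C, 6 of the 30 arrays of the series. The arrays were assigned by their titles, and the rule uses no measured value. The series is a time course of KH2 cells, a mouse embryonic stem (ES) cell line, grown on feeder fibroblasts and then treated with 0.3 uM retinoic acid in differentiation medium. Expression was measured on single-channel arrays from 200 ng of biotin-labelled RNA at 8 times. The 8 h arrays are labelled baseline and the 24 h arrays retinoic acid, and the labels leave it unsaid whether the agent was already present at 8 h. The protocol names the retinoic acid medium for treatments of 2, 4 and 6 h and gives no such line for the times of these arrays. Both groups share the same line and the feeders, and whether their medium differed in retinoic acid is not stated. No untreated arrays at 24 h are in the comparison, so retinoic acid and time in culture cannot be told apart. Before RNA was taken, cells were replated on gelatin for 30 min, a step commonly used to remove feeders, but the protocols differ on whether the cells that adhered or the cells in the drawn-off medium were kept. The 3 arrays titled 24 h D, E and F were left out of the main comparison. No label says that arrays of one group came from separate cultures, so a p-value here reflects only how much these arrays vary, which may be technical variation. All values are on the log2 scale of array intensity, where a change of 1 is a 2-fold difference, and having only 3 arrays a group limits the precision.

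The labelled cell type was checked against its defining markers. All 7 measured markers of ES cells (Pou5f1, Nanog, Sox2, Zfp42, Esrrb, Utf1 and Dppa5a) lay above the array's median gene in each of the 6 arrays, and their median level ran from 12.76 to 12.85 at 8 h and from 12.56 to 12.66 at 24 h. Of 11 measured markers of feeder fibroblasts, 10 also lay above that bound in each array. Their median was 7.96 to 8.34 at 8 h and 8.36 to 8.86 at 24 h. Both marker sets were thus measured in both groups. In such bulk RNA, fewer cells of a type and less RNA per cell cannot be told apart. Arrays of one group differed by less than arrays of different groups: the standard deviation of the difference over all probe sets was 0.175 to 0.204 within a group and 0.322 to 0.381 between groups. The probe set for the 5' end of 18S ribosomal RNA read 11.12, 10.17 and 10.18 at 8 h and 10.52, 9.03 and 10.53 at 24 h, so the array 24 h B stood lowest.

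Retinoic acid is made from vitamin A by retinol and retinaldehyde dehydrogenases, carried in the cell by small binding proteins, and cleared by the Cyp26 enzymes. It binds retinoic acid receptors (RARs), which sit on DNA with retinoid X receptors (RXRs) at direct repeats of a short half-site and switch from repression to activation when the ligand arrives. In ES cells it is widely used to start exit from pluripotency, and it is known for switching on Hox genes and pushing neural cells towards a hindbrain and spinal cord identity.

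A pair of genes in the comparison carries the classical repeat close to the start of transcription, in which 5 bases lie between the half-sites (DR5, searched on both strands from 250 bases before to 50 after each RefSeq start of GRCm38.p6). Their matches are shown because both encode feedback parts of the pathway, a receptor and the enzyme that clears the ligand, and both were higher at 24 h. Each is written 5' to 3' on the strand of its gene, and capitals mark the match to the repeat.
Rarb, chr14:16575501-16575541, minus strand, match at -53 to -37: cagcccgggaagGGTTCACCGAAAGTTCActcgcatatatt
Cyp26a1, chr19:37697764-37697804, plus strand, match at -32 to -16: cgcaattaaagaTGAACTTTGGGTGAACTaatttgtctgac
The match in Rarb lies on the gene's strand and the match in Cyp26a1 on the opposite strand. Of the 14452 genes tested that had a promoter in the table, 11 (0.0761%) held this repeat. Among the genes at least 1 log2 unit higher, it was found in 1 of 266, Ppbp, a platelet chemokine. No match was found in the promoters of 19 Hox genes or in those of 54 genes at least 1 log2 unit lower. Of the 11 genes with the repeat, Rarb, Cyp26a1 and Ppbp rose and the other 8 did not pass the test. Over all genes tested, 23.5% were higher at 24 h. A link between the repeat and a rise was not tested. A match describes the letters only, and a window without one says nothing about elements elsewhere.

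Over 18193 genes, each read by 1 probe set, 7154 (39.3%) passed the test of 24 h against 8 h (limma, Benjamini-Hochberg adjusted p under 0.05). Of all genes tested, 4277 (23.5%) were higher at 24 h and 2877 (15.8%) lower. Most of these changes were small, with a median size of 0.36. A change of at least 1 log2 unit was reached by 351 genes (1.93%) upward and 71 genes (0.39%) downward. Among them, 26 genes rose by at least 2 units and 1 fell by as much. The 3 arrays of one group lay wholly beyond those of the other for 9993 genes (54.9%). The upward share of the calls, 59.8%, depends on how arrays are scaled. It was 46.5% after quantile normalization was repeated on the deposited values of these genes. It was 21.7% after each array was centred on the median of its 18193 genes, called median centring below. That median is not the one over all probe sets. The centring moved the median change of all genes from -0.02 to -0.20. Small net changes are therefore read against this shift, and counts after median centring are given beside lists whose balance it turned. Of 218 genes named in the text and compared across settings, 186 were called. Averaging all probe sets of a gene instead of reading the brightest moved the change of 45 of these 186 by over 1.5 times and ended 8 of their calls.

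**Figure D1:**
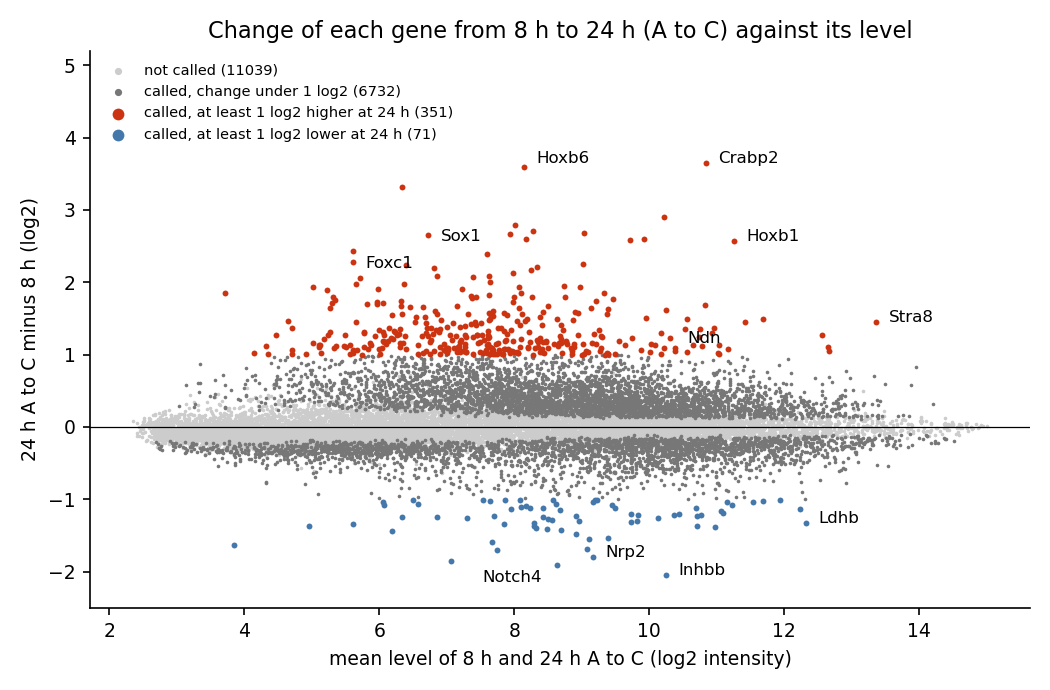
Each point is 1 gene, with its mean level over the 8 h and 24 h A to C arrays (log2 intensity) on the x axis and its change from 8 h to 24 h (log2) on the y axis. Red points are the 351 genes called at least 1 log2 unit higher and blue points the 71 called at least as much lower. Rises reach 3.65 (Crabp2) while the deepest fall is -2.04 (Inhbb).

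The largest rise was that of Crabp2, the cellular retinoic acid binding protein that hands the ligand to the receptors. Its level was 9.10, 8.99 and 8.96 on the 8 h arrays and 12.53, 12.77 and 12.70 on the 24 h arrays, a rise of 3.65 ± 0.14 (SE, adjusted p = 1.1e-15). The groups were far apart, and by 16 h the mean had already reached 12.19. Of the 15 largest rises, 9 were Hox genes, described with their clusters, and 1 was Zfp703, a transcriptional corepressor known to respond to retinoic acid. Sox1, the earliest transcription factor of the neural plate, rose by 2.65 ± 0.18, from 5.76, 5.42 and 5.01 to 7.68, 8.47 and 8.02. Cpeb1, which controls polyadenylation and translation of stored mRNAs, rose by 2.38 ± 0.11. Scara3, a scavenger receptor, was close to the dim end of the arrays at 8 h and rose by at least 2.44 ± 0.15. Here and below a change is written "at least" where the lower group's mean was under 4.73, the lowest lower quartile of any array. BC048679, a gene without a settled function, rose by 2.70 ± 0.10.

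The deepest fall was that of Inhbb, the beta B subunit of activins and inhibins. It read 11.23, 11.35 and 11.21 at 8 h against 9.63, 8.66 and 9.38 at 24 h, a fall with a log2 change of -2.04 ± 0.27 (adjusted p = 1.2e-06). The groups did not overlap, and 24 h B, the array lowest in 18S RNA, was the lowest of the 3. Notch4, a Notch receptor best known from vessel endothelium, changed by -1.91 ± 0.13, from 9.36, 9.54 and 9.89 to 7.82, 7.58 and 7.64. Nrp2, a coreceptor for semaphorins and vascular growth factors, changed by -1.79 ± 0.09 and fell on all 4 of its probe sets. Tcl1, a coactivator of Akt kinase that is typical of ES cells, changed by -1.69 ± 0.21. Enox1 (-1.86), a cell surface oxidase, Rgcc (-1.70), a regulator of the cell cycle, Nphs1 (-1.60), which encodes nephrin, and Parvb (-1.54), an adaptor of focal adhesions, followed. The rest of the 15 were a probe set listed under Mir1949 (-1.55), Pdzd4 (-1.48), Cabp4 (-1.43), a calcium binding protein of photoreceptors, Ephx2 (-1.42), an epoxide hydrolase, Msc (-1.41), a basic helix-loop-helix repressor, Cd37 (-1.40), a tetraspanin of lymphocytes, and Klhl4. Klhl4 was under the dim bound in both groups, so no size is given for it.

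**Figure D2:**
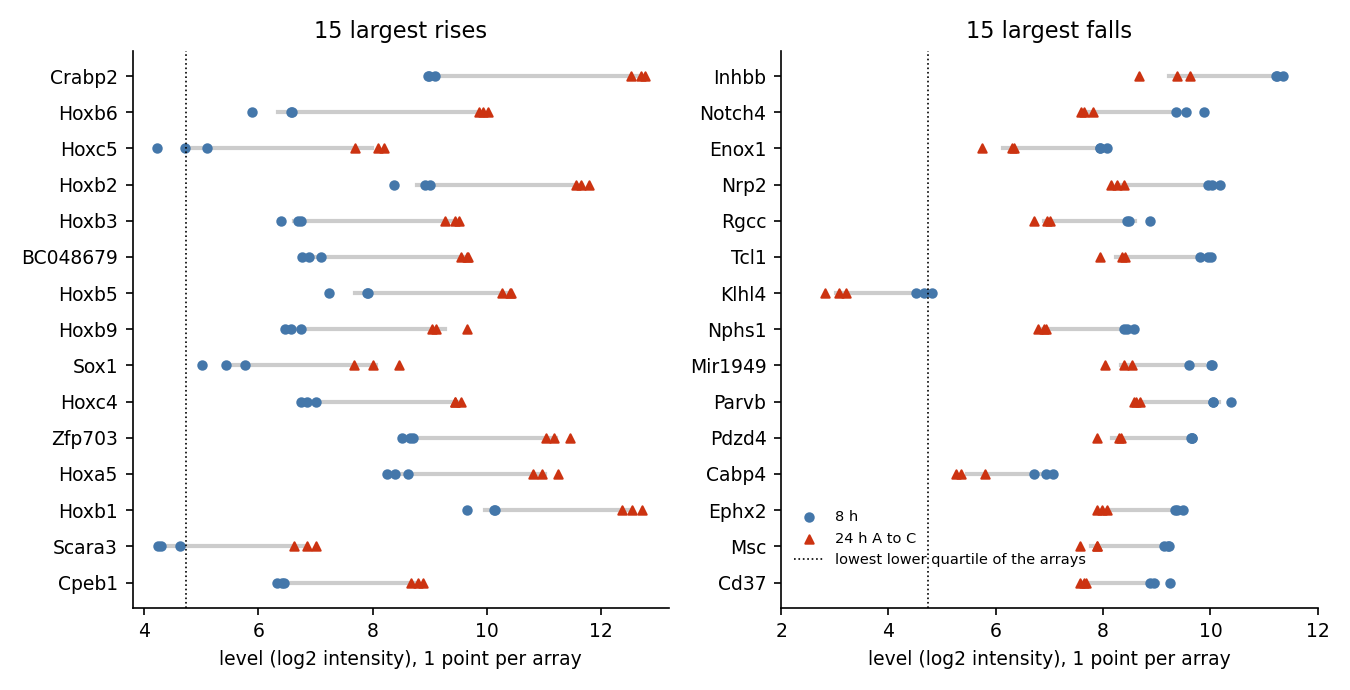
Level of the 15 largest rises (left) and the 15 largest falls (right), x axis in log2 intensity, 1 point per array: circles are the 3 arrays of 8 h, triangles the 3 of 24 h A to C, grey bars join the group means, and the dotted line is the lowest lower quartile of any array. In every row the triangles lie wholly to one side of the circles, which the choice of these genes required.

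Genes that handle retinoids moved unevenly. Of 6 measured carriers, 3 rose and 1 fell, with a median change of 0.42 (3 and 3 after median centring). Stra6, the membrane receptor that takes up retinol, rose by 1.10 ± 0.10, and Rbp4, the carrier of retinol in plasma, by 0.93 ± 0.18. Rbp2, the intestinal retinol binding protein, changed by -0.33 ± 0.09. The paralogue Crabp1 was at 9.24 and then 9.14, and Fabp5, which can carry retinoic acid to another receptor family, at 11.40 and 11.22, and neither passed the test. Only Crabp2, Stra6 and Rbp4 of the 6 rose.

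Of 18 enzymes of retinoid synthesis and clearance, 4 rose and 2 fell (median -0.02, with 3 higher and 7 lower after median centring). The share called, 33.3%, was below the 39.3% of all genes. Cyp26a1, the main enzyme that oxidises retinoic acid, was at 12.61, 12.52 and 12.45 at 8 h and at 13.22, 13.39 and 13.27 at 24 h, a rise of 0.77 ± 0.11 without overlap. Its means at 12 h and 16 h were 13.13 and 13.47, so the 24 h level lay below the 16 h level. Dhrs3, which reduces retinaldehyde back to retinol, rose by 0.52 ± 0.07 and also had its highest mean at 16 h (9.62, against 9.35 at 24 h). The retinol dehydrogenase Rdh14 rose by 0.63 ± 0.08. Rdh12 rose by 0.29 ± 0.11, and the alcohol dehydrogenases Adh7 (-0.33) and Adh5 (-0.23) fell. The calls of Rdh12 and Adh7 were lost under most choices of 5 from the 6 arrays. Cyp26b1 (0.10) and Rdh10 (0.19), the retinol dehydrogenase that is rate-limiting in the embryo, did not pass the test.

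Of the 6 receptors, 2 rose and 2 fell (2 and 4 after median centring). Rarb rose by 0.93 ± 0.12, from 7.39, 7.51 and 7.29 to 8.21, 8.61 and 8.18. Rarg, the RAR best known from the epiblast and tail bud, changed by -0.53 ± 0.07 and fell on both of its probe sets. Rara, the broadly expressed RAR, was at 9.54 and 9.38 and did not pass the test (-0.16). Among the RXR partners, Rxra rose by 0.49 ± 0.07 on 1 of 3 probe sets, Rxrg changed by -0.38 ± 0.10, and Rxrb (-0.03) did not pass. With the mean of all probe sets the change of Rxra was 0.09 and no longer called. Of 9 measured coregulators, 3 rose and 1 fell (3 and 4 after median centring), 44.4% called against 39.3% of all genes. The p160 coactivators Ncoa1 (0.61) and Ncoa2 (0.41) and the corepressor Nrip1 (0.40) rose and Ncoa3 (-0.34) fell. The call of Nrip1 was lost with the mean of its probe sets.

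Genes known as targets of retinoic acid outside the Hox clusters were mostly higher: 14 of 23 measured rose and 1 fell, with a median change of 0.63 against -0.02 over all genes. Zfp703 rose by 2.60 ± 0.09 on the probe set with the highest signal, while another of its 3 probe sets was lower. Meis1, a homeodomain partner of Hox proteins, rose by 2.08 ± 0.12, from 6.53, 6.30 and 6.22 to 8.29, 8.64 and 8.35, and its relative Meis2 by 1.85 ± 0.13 on all 4 probe sets. Stra8, the gatekeeper of meiosis that was found as a gene stimulated by retinoic acid, rose by 1.46 ± 0.14 from an already high level (12.66, 12.60 and 12.65 to 14.01, 14.22 and 14.05). Tshz1 (1.46), a zinc finger factor of the trunk, Nr2f1 (1.45), an orphan receptor of the hindbrain and eye, and Zfp503 (1.28), a corepressor of the limb and striatum, rose by similar amounts. Cdx1, a regulator of posterior Hox genes, rose by 0.68 ± 0.13 and Gbx2, which marks the anterior hindbrain, by 0.70 ± 0.11. Wnt8a, a Wnt ligand of the primitive streak, changed by -0.64 ± 0.14.

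Proteins of the TALE class bind DNA together with Hox proteins, and 6 of the 8 measured rose and none fell. Beside Meis1 and Meis2, Pknox2 rose by 2.09 ± 0.12, Pbx3 by 0.72 ± 0.09, and Meis3 (0.29) and Pbx2 (0.27) by less. The call of Meis3 was lost without any 1 of 5 arrays. After median centring 4 of the 8 were higher and 1 lower.

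Hox genes, which set position along the body axis, rose as a family. Of 33 measured genes, 24 rose, none fell, and 16 rose by at least 1 log2 unit, with a median change of 0.82. By cluster, 8 of 9 Hoxb genes on chromosome 11 rose (median 2.67), 7 of 9 Hoxa genes on chromosome 6 (1.60), 5 of 7 Hoxc genes on chromosome 15 (0.58) and 4 of 8 Hoxd genes on chromosome 2 (0.25). Hox genes lie in the order of their paralogue groups along each cluster. Pooled over the clusters, the median change was larger in the lower group numbers. Within a cluster the largest change was not always at that end. It was that of Hoxa5 (2.59), Hoxb6 (3.59), Hoxc5 (at least 3.32) and Hoxd1 (at least 1.76). Of 10 genes in groups 1 to 4, 9 rose (median 2.07), of 9 in groups 5 to 8, 7 rose (1.08), and of 14 in groups 9 to 13, 8 rose (0.40). After median centring the last group had 6 higher and 3 lower. Of its 14 genes, 5 were under the dim bound in both groups, against none in groups 1 to 8. With the dimmest 30% of all genes left out, 8 of 10 in groups 9 to 13 rose (median 0.64). The medians were then 2.22 in groups 1 to 4 and 1.84 in groups 5 to 8.

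Hoxb6 rose most in the family, from 6.57, 6.59 and 5.88 to 9.86, 10.02 and 9.93 (3.59 ± 0.14). Hoxb1, the gene of rhombomere identity next to the end of the cluster, started at 10.12, 10.14 and 9.66 and reached 12.37, 12.72 and 12.54 (2.57 ± 0.12). In the same cluster Hoxb2 rose by 2.90 ± 0.12, Hoxb3 by 2.79 ± 0.12, Hoxb5 by 2.68 ± 0.13, Hoxb9 by 2.67 ± 0.15 and Hoxb4 by 1.93 ± 0.11. Hoxb7, between them, was not called at 0.01. The lone posterior gene of that cluster, Hoxb13, rose by 0.82 ± 0.14 but had been 1.61 above 8 h at 16 h.

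In the Hoxa cluster, Hoxa5 rose by 2.59 ± 0.09 on both probe sets, Hoxa3 by 2.22 ± 0.11, Hoxa4 by 1.93 ± 0.10, Hoxa2 by 1.66 ± 0.11 and Hoxa9 by 1.60 ± 0.18. Hoxa7 rose by 0.57 ± 0.13, while Hoxa11 (0.03) and Hoxa13 (-0.18) did not pass. Hoxa13 was under the dim bound in both groups. Hoxa10 was called higher on its brighter probe set and lower on the other. In the Hoxc cluster, Hoxc5 rose by at least 3.32 ± 0.20 and Hoxc4 by 2.60 ± 0.12, and their neighbours Hoxc6 (-0.04) and Hoxc9 (-0.06) did not pass. Hoxc8 (at least 0.58) and Hoxc10, which was under the dim bound in both groups, owed part of their change to the array 24 h B: without it they stood at 0.38 and 0.42 and were not called. The call of Hoxc8 was lost without any 1 of 5 arrays, that of Hoxc10 also without 8 h A or 8 h C, and that of Hoxa10 without 8 h B or 24 h B. In the Hoxd cluster, Hoxd1 rose by at least 1.76 ± 0.17, Hoxd8 by 1.08 ± 0.19 and Hoxd9 by 0.48 ± 0.12. Hoxd13 (0.63) was higher on 1 probe set and lower on the other. Hoxd3 (0.03), Hoxd10 (0.03), Hoxd11 (-0.19) and Hoxd12 (-0.15) did not pass, and all of these but Hoxd3 were under the dim bound in both groups. The small call of Hoxc13 (0.31) was lost without any 1 of 5 arrays.

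The path to these levels differed between genes and did not follow the group number throughout. At 12 h the largest change from 8 h among Hox genes was that of Hoxb6 (1.20), followed by Hoxb13 (0.94), Hoxb2 (0.91), Hoxb3 (0.90) and Hoxb1 (0.87). By 16 h Hoxb1 stood 2.11 above 8 h, most of its final 2.57. Hoxb6 (3.04 of 3.59) and Hoxa9 (1.34 of 1.60) also had most of their change by then. In contrast, Hoxb9 stood at 1.08 of a final 2.67 and Hoxa2 at 0.52 of 1.66. Hoxa7 (-0.02) and Hoxd9 (-0.04) were still at the 8 h level at 16 h.

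**Figure D3:**
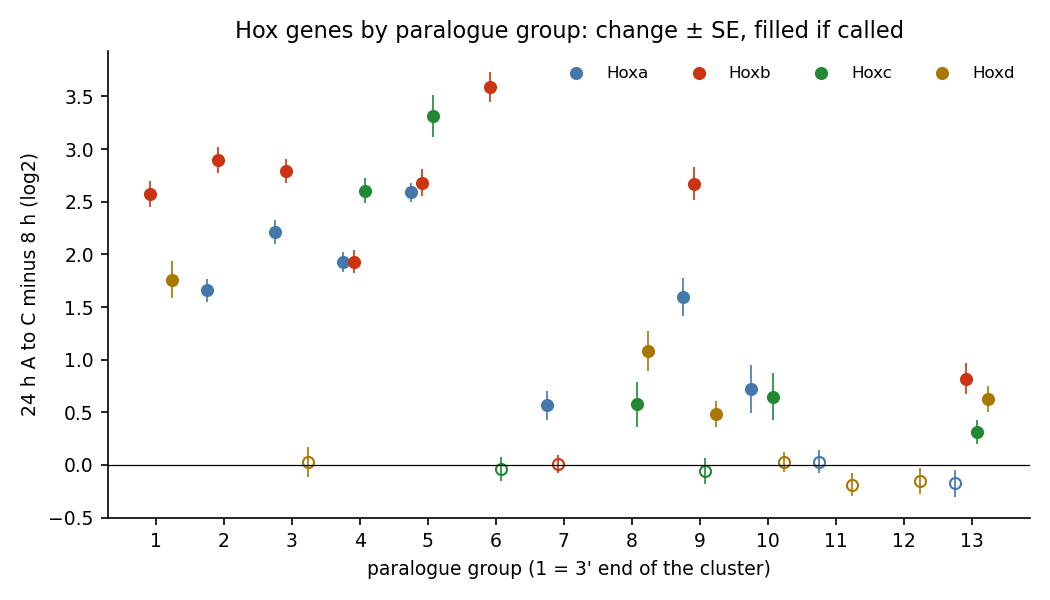
Change from 8 h to 24 h A to C (log2, y axis) of the 33 measured Hox genes by paralogue group (x axis, where 1 is the 3' end of each cluster), coloured by cluster, with the standard error as bars and filled points for genes that passed the test. All values over 1.5 belong to groups 1 to 6 and to Hoxb9 and Hoxa9, the genes of groups 10 to 13 stay under 1, and Hoxd3 and Hoxc6 lie near 0 among raised neighbours.

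Genes of pluripotency moved the other way. Of 31 measured genes of the core and naive network, 26 fell and 1 rose, with a median change of -0.59. The falls were uneven across the network. Pou5f1, which encodes the core factor Oct4, was at 13.33, 13.31 and 13.37 at 8 h and 12.95, 12.78 and 12.82 at 24 h (-0.48 ± 0.12). Nanog was at 12.76, 12.72 and 12.81 and then at 12.66, 12.56 and 12.59, without overlap. Its change of -0.16 ± 0.08 did not pass in the fit of all 30 arrays (adjusted p = 0.14). Nanog was called lower with only the 6 arrays compared in the limma fit (adjusted p = 0.048) and with the 12 arrays up to 24 h A to C (0.046). After median centring it was also called lower (-0.35). Sox2, which neural progenitors also express, was at 13.02 and 12.94 (-0.09) and Klf2 at 12.74 and 12.64 (-0.10), and neither passed.

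Other members of the list had larger falls. Esrrb, an orphan receptor of naive cells, changed by -1.23 ± 0.13 (11.25, 11.31 and 11.38 to 10.28, 9.87 and 10.11) on all 3 probe sets. Nr0b1 (-1.22), a corepressor also called Dax1, Dppa3 (-1.21), a maternal factor, Fgf4 (-1.20), the ligand that drives ES cells towards differentiation, Utf1 (-1.13), a chromatin factor, and Eras (-1.13), a Ras protein of ES cells, fell by similar amounts. Mybl2 (-1.04), a cell cycle factor, Klf4 (-0.99) and Nr5a2 (-0.85), which can activate Pou5f1, followed. Zfp42, which encodes Rex1, changed by -0.46 ± 0.09, and Gdf3 (-0.24) did not pass. With only the 6 arrays compared in the limma fit, or the 12 arrays up to 24 h A to C, Gdf3 was called lower (adjusted p = 0.015 and 0.0035). The single rise was in Il6st, the signalling receptor of the LIF family, at 0.21 ± 0.07, with 1 of its 4 probe sets lower and its call lost without 24 h A.

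The genes of the formative and primed epiblast, the state that follows naive pluripotency, did not rise as a group: of 17 measured, 8 fell and 4 rose (median -0.23). Etv4, an ETS factor downstream of FGF, changed by -1.37 ± 0.12, Lef1, a Wnt effector, by -1.24 ± 0.16 and Otx2, the factor of the epiblast and forebrain, by -1.01 ± 0.17. Fgf5, the classical epiblast marker, went from a mean of 5.63 to a mean of 4.27, under the dim bound, so that its change of -1.37 is a lower bound of the size. The 4 that rose included the neural factors Sox4 (1.50) and Sox3 (0.86) and the zinc finger gene Sall2 (1.04).

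Enzymes of DNA methylation and demethylation were lower in 24 h A to C, 5 of 8 falling and none rising (median -0.50). Dnmt3b, a de novo methyltransferase, read 11.63, 11.60 and 11.49 at 8 h and 10.65, 10.67 and 10.81 at 24 h (-0.87 ± 0.07). Its cofactor Dnmt3l (-0.91), the oxidase Tet1 (-0.77) and Dnmt3a (-0.68) fell by close amounts, and Tet2 (-0.31) by less. The maintenance enzyme Dnmt1 did not pass (-0.08). In the arrays 24 h D to F, set against the same 8 h arrays, 1 of the 8 was higher and 3 were lower (median -0.07). Dnmt3b (-0.03) and Dnmt3l (-0.05) did not pass there.

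Neural plate and hindbrain genes were raised in part: 15 of 29 rose and 1 fell (median 0.50; 14 and 5 after median centring). Beside Sox1, the patterning factors Irx3 (1.48), Irx5 (1.20) and Irx2 (0.97) rose, as did Pax6 (1.09), a factor of the neural tube and eye, and the neural cadherin Cdh2 (0.98). Pax6 read 8.38, 8.34 and 8.17 at 8 h and 9.35, 9.41 and 9.40 at 24 h, but had been at 8.09 at 16 h. Zic1, a neural plate border factor, rose by at least 1.07 ± 0.18 and the glycoprotein Gpm6a by at least 1.46 ± 0.13. En2, which marks the midbrain and its border with the hindbrain, changed by -0.45 ± 0.11.

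Genes of proneural factors and early neurons had no common direction. Of 19 measured, 3 rose and 5 fell, with a median change of 0.00. The share called, 42.1%, was near the 39.3% of all genes. The rises were in homeodomain factors of motor neurons, Mnx1 (1.91 ± 0.21), Isl1 (1.28 ± 0.18) and Lhx1 (0.64 ± 0.14), all 3 also expressed outside the nervous system; the call of Lhx1 was lost when its probe sets were averaged. The proneural factor Neurod1 (-0.86), the neuronal RNA binding protein Elavl3 (-0.74) and the microtubule regulator Stmn2 (-0.71) fell.

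Among genes of other fates, endoderm showed 12 higher and 2 lower of 27 (median 0.27; 9 and 6 after median centring). Foxa2, a pioneer factor of definitive endoderm and the floor plate, rose by 1.25 ± 0.17, from 6.65, 6.48 and 6.40 to 7.49, 8.06 and 7.74. The simple keratins Krt8 (1.25) and Krt18 (1.03), Foxa1 (0.96) and Lrp2 (0.95), an endocytic receptor of visceral endoderm and neuroepithelium, rose as well. The extraembryonic markers Sox7 (0.69) and Sox17 (0.65) rose, Gata6 (0.27) did not pass, and Afp (-0.15), a late product of visceral endoderm, did not either. Dab2, an endocytic adaptor of the same tissue, rose by 0.65 ± 0.10, and its call was lost when probe sets with less specific names were left out.

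Of 21 mesoderm genes, 6 rose and 2 fell (median 0.07, with 5 and 7 after median centring), 38.1% called against 39.3% of all genes. The rises were in a few transcription factors. Foxc1, a forkhead factor of paraxial mesoderm, rose by at least 2.28 ± 0.16, and its paralogue Foxc2 by 2.24 ± 0.17 from 5.39, 5.55 and 4.87 to 7.48, 7.53 and 7.54. Twist1, a factor of mesenchyme and neural crest that feeder fibroblasts also express, rose by 0.93 ± 0.12. Eomes, which starts the primitive streak, changed by -0.50 ± 0.13. Trophoblast genes (2 higher and 1 lower of 13, or 1 and 5 after median centring) and genes of the 2-cell-like state (none higher and 1 lower of 5) gave shares at or below those of all genes.

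Germ cell genes rose beyond Stra8: 9 of 13 were higher and none lower (median 0.44; 7 and 1 after median centring). Taf7l, a testis form of a general transcription factor subunit, rose by 1.36 ± 0.16, Rec8, the meiotic cohesin, by 1.24 ± 0.11, Sycp1, of the synaptonemal complex, by 1.18 ± 0.10, and Mael, of the piRNA pathway, by 1.11 ± 0.17. Rec8 had been highest at 16 h (10.31, against 9.91 at 24 h), while Sycp1 went from 6.84 at 16 h to 7.79. In the arrays 24 h D to F, set against the same 8 h arrays, 4 of the 13 were higher and 5 lower, and Taf7l (0.24) and Sycp1 (0.09) did not pass.

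Imprinted genes that act on growth were higher in 11 of 14 cases and lower in 2 (median 0.67), also after median centring. Grb10, an adaptor that restrains insulin signalling, rose by 1.26 ± 0.08 on all 3 probe sets, Ndn, a MAGE family protein of neurons, by 1.05 ± 0.09, Cdkn1c, a cyclin kinase inhibitor, by 0.97 ± 0.13 and Mest, of the hydrolase family, by 0.87 ± 0.12. Igf2, the fetal growth factor, rose by 0.80 ± 0.11 on 1 of 2 probe sets, and its call was lost when both were averaged (0.31). The rise of the zinc finger gene Plagl1 (1.50 ± 0.11) rested on 1 probe set of 3: with the probe set that remained after less specific ones were left out it was 0.01.

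Ligands, receptors and targets of signalling pathways changed in both directions. In the Nodal and activin pathway 10 of 18 rose and 3 fell (8 and 4 after median centring). The antagonists rose: Fst, which traps activin, by 0.90 ± 0.22, Lefty2 by 0.76 ± 0.22 and Lefty1 by 0.58 ± 0.17. Lefty1 was already among the highest values at 13.65, 13.60 and 13.52 and reached 14.14, 14.22 and 14.17. The falls were in the ligand subunit Inhbb, described above, in the coreceptor Tdgf1, also called Cripto (-0.59 ± 0.12), and in the inhibitor Smad7 (-0.38). In the BMP pathway, the ligand Bmp4 changed by -1.30 ± 0.15, from 10.33, 10.38 and 10.70 to 9.35, 8.82 and 9.35, while the receptor Bmpr2 (0.92), the mediator Smad1 (0.69) and the target Id2 (0.76) rose. Over its 23 genes 7 rose and 3 fell (6 and 7 after median centring), 43.5% called against 39.3% of all genes. The call of Id2 was lost when less specific probe sets were left out (0.48).

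In the FGF pathway 10 of 20 genes fell and 5 rose (median -0.17). The ligands Fgf4 (-1.20) and Fgf17 (-1.24), the feedback inhibitor Spry4 (-0.83) and the receptor Fgfr3 (-0.80) fell with Etv4, whereas the phosphatase Dusp6, also a feedback gene, rose by 0.84 ± 0.09 and the receptor Fgfr1 by 0.61 ± 0.07. Feedback genes of this pathway thus moved both ways.

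The hedgehog pathway was raised, with 8 of 13 genes higher and 1 lower (median 0.60; 7 and 2 after median centring). Ptch1, the receptor and a standard target, rose by 1.06 ± 0.09, from 12.22, 12.15 and 12.03 to 13.11, 13.37 and 13.09. Its partners rose with it: the decoy Hhip by 1.27 ± 0.13 on all 4 probe sets, the coreceptors Gas1 by 1.27 ± 0.12 and Cdon by 0.98 ± 0.12, and the signal transducer Smo by 1.00 ± 0.06. Gli2, a transcription factor of the pathway, changed by -0.49 ± 0.08.

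In the Wnt pathway 9 of 28 genes rose and 5 fell (5 and 10 after median centring). The receptor Fzd2 rose by 1.34 ± 0.09 and the secreted antagonist Sfrp5 by 0.80 ± 0.17, while Lef1 and the feedback deacylase Notum (-0.76 ± 0.15) fell. Of 29 guidance cues and receptors, 12 rose and 4 fell (9 and 8 after median centring). The semaphorin Sema3c (1.32 ± 0.15), the semaphorin receptor Plxna2 (1.31 ± 0.13) and the ephrin Efnb1 (1.29 ± 0.09) rose, and Nrp2 and the netrin Ntn1 (-0.77 ± 0.08) fell.

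Of 18 genes of cadherin switching and mesenchymal transition, 7 rose and 1 fell, 44.4% called against 39.3% of all genes. Cdh1, the epithelial cadherin of ES cells, was at 12.66, 12.60 and 12.65 and then at 12.52, 12.63 and 12.55 and did not pass (-0.08), while Cdh2 rose. Cdh3, the placental cadherin, changed by -0.69 ± 0.13. The tight junction gene Ocln rose by 0.90 ± 0.14.

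Part of the fibroblast marker list rose as well, beside Cdh2, Twist1 and Foxc1. Of 28 measured, 8 rose and none fell (median 0.41), a share near the 23.5% of all genes; with only the 6 arrays compared in the fit 16 rose, and 15 with the 12 arrays up to 24 h A to C. The 8 were led by the actin binding genes Tagln (1.49 ± 0.16) and Cnn1 (1.22 ± 0.12), the protease Mmp2 (0.91) and the receptor Pdgfrb (0.84), whose call was lost when less specific probe sets were left out. The 8 collagen genes and Postn, Thy1, Lox and Dcn, which define fibroblasts, did not pass in the fit of all 30 arrays; those calls depend on the arrays fitted. The mean of the list was 8.44, 8.65 and 8.54 at 8 h and 8.87, 9.03 and 8.87 at 24 h, without overlap. The part of feeders in the rises of mesenchymal genes was not tested.

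Among chromatin regulators, 23 Polycomb and trithorax genes split into 5 higher and 5 lower (4 and 13 after median centring). The share called, 43.5%, was near the 39.3% of all genes. Bmi1, a subunit of Polycomb complex 1, had the largest change of the list, a rise of 1.80 ± 0.10 on both probe sets, from 7.93, 7.91 and 7.72 to 9.61, 9.76 and 9.58. At 16 h it had been at 8.30, so most of its change fell between 16 h and 24 h. Of its partners, Phc2 (0.66) and Cbx2 (0.56) rose and Phc1 (-0.55), a form typical of ES cells, fell.

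Of 25 cell cycle genes, 11 fell and 3 rose (19 and 1 after median centring). Ccne1, the S phase cyclin that is high in ES cells, changed by -0.75 ± 0.12 and Ccnd3 by -0.59 ± 0.06, while Ccnd2, a G1 cyclin of progenitors, rose by 1.03 ± 0.14 on 6 of 7 probe sets. Inhibitors and targets of p53 were higher in 11 of 20 cases and lower in 1 (median 0.29), among them Cdkn1c, Cdkn2a (0.80) and Cdkn1a (0.64). Myc, which ES cells need for self-renewal, changed by -1.28 ± 0.18, from 9.15, 9.25 and 9.21 to 7.93, 7.67 and 8.16.

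**Figure D4:**
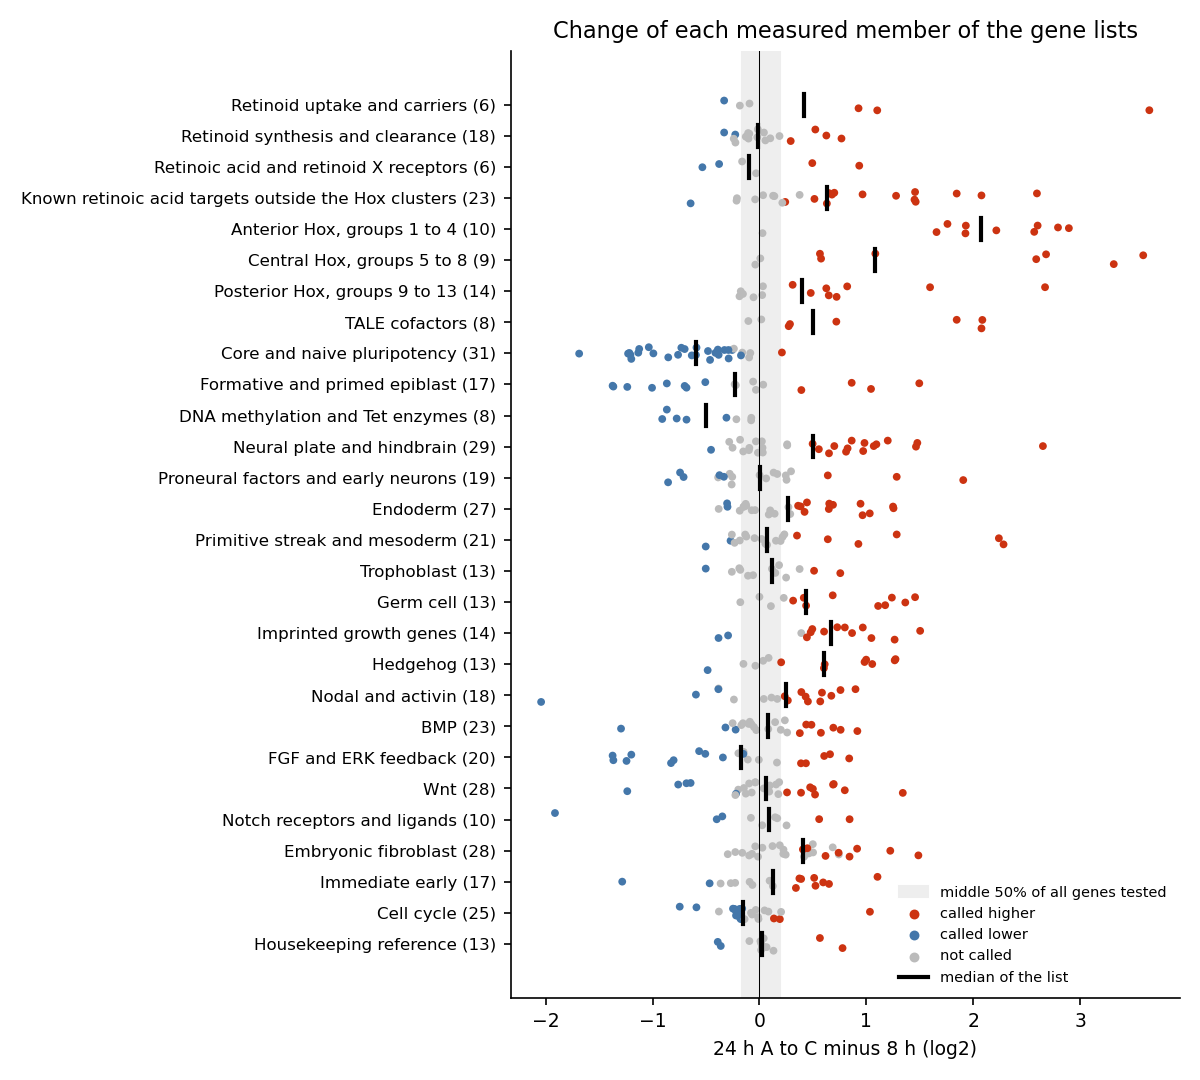
Change from 8 h to 24 h A to C (log2, x axis) of the measured members of the lists (rows), 1 point per gene: red passed the test upward, blue downward and grey did not pass, black bars are list medians and the shaded band holds the middle 50% of all genes. Anterior Hox genes have the highest median (2.07) and the pluripotency list the lowest (-0.59), against -0.02 over all genes.

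Not every gene went straight from its 8 h to its 24 h level. Among the 351 genes at least 1 log2 unit higher, a median share of 0.28 of the change had occurred at 12 h and of 0.65 at 16 h. Of these, 142 had completed over 0.75 of it by 16 h, 59 under 0.25, and 28 were on the opposite side of 8 h at that time. Among the 71 genes at least as much lower, the shares were 0.26 and 0.73. These shares describe group means of 3 arrays at each time, with no test.

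The end points also hide changes that came back. At 16 h, 467 genes were at least 1 log2 unit away from 8 h, and 123 of these (26.3%) were within 0.5 at 24 h. Of the 123, 79 had been up and 44 down. The genes named here were chosen after their values were seen, from the largest such excursions. Chac1, an enzyme that degrades glutathione and a target of the integrated stress response, stood -1.23 at 12 h, -2.35 at 16 h and 0.18 at 24 h from its 8 h mean of 11.88. Atf3, a stress factor (-0.88, -1.73 and 0.39), and Trib3, a pseudokinase of the same response (-0.82, -1.43 and 0.26), followed the same course. Ddit3, another stress factor, moved the other way (0.73, 1.46 and 0.47), so stress genes had no single course. Sfpq, an abundant splicing factor, was lower by 1.56 at 16 h and at 0.02 at 24 h, although its 8 h arrays differed by little (12.22, 12.18 and 12.17). In the other direction, the chemokine Cxcl12 stood 1.42 above 8 h at 16 h and at -0.02 at 24 h, and Irf8, an interferon regulatory factor, at 1.65 and 0.37. None of these but Atf3 and Ddit3 passed the test of 24 h against 8 h, and the call of Atf3 was lost without 8 h C.

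Immediate early genes, which answer within minutes to growth factors or handling, had the same course as a list. The median of 17 was -0.81 at 16 h and 0.13 at 24 h, when 8 were higher and 2 lower than at 8 h (3 and 6 after median centring). Egr1, the zinc finger factor of that class, was at 12.02, 12.09 and 12.18 at 8 h, at a mean of 11.23 at 16 h, and at 13.20, 13.44 and 12.96 at 24 h (1.10 ± 0.14). Atf5, a stress factor, rose by 1.36 ± 0.22 after a mean of 9.46 at 16 h, below its 10.28 at 8 h.

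**Figure D5:**
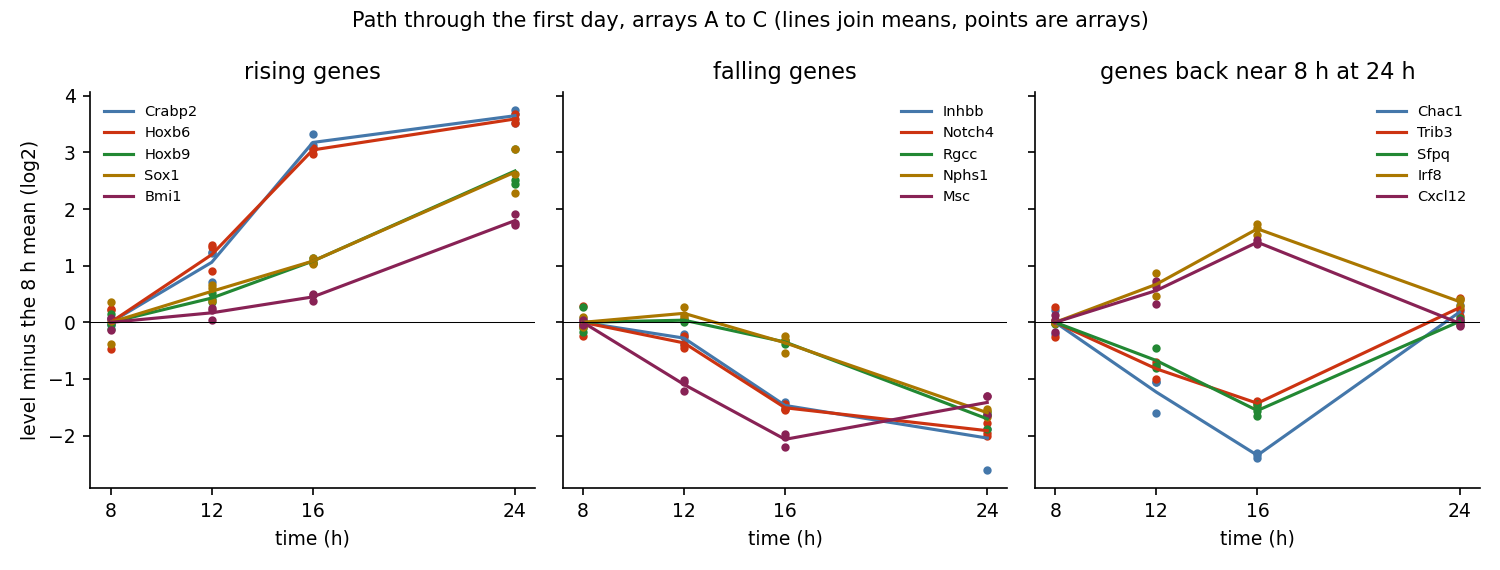
Level minus the 8 h mean (log2, y axis) at 8 h, 12 h A to C, 16 h and 24 h A to C (x axis, hours) for 5 rising genes (left), 5 falling genes (middle) and 5 genes back near 8 h (right); points are the 3 arrays at each time and lines join their means. Crabp2 and Hoxb6 have most of their rise by 16 h and Bmi1 most of it later, while Chac1 dips to -2.35 at 16 h and is back at 0.18 at 24 h.

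The other 3 arrays of 24 h, D to F, share the 8 h arrays as their base, so both sets are given side by side only. Control probe sets differed too. The 5' end of 18S RNA read 8.352, 7.988 and 8.215 in D to F, below every array compared. The 3' probe set of the added control BioB read 7.422, 6.517 and 9.390 in D to F, against 9.324, 9.223 and 9.325 in A to C. The part of such technical differences in the D to F values was not tested. Some genes read further from 8 h in D to F: Crabp2 was at 13.03 in D to F and 12.67 in A to C, Hoxa5 at 12.12 and 11.01, and Hoxc5 at 9.23 and 8.00. Sox1 was at 9.61 and 8.05 and Otx2 at 5.28 and 7.36. Others read closer to 8 h, and 18 of the 186 named genes called in A to C had the same sign in D to F but did not pass. Among these, Cyp26a1 was at 12.74 in D to F against 13.29 in A to C (change 0.21), and the changes of Hhip (0.23), Ocln (0.27), Ccne1 (-0.08) and Ncoa1 (0.02) were small. A further set lay on the other side of 8 h. Foxa1 was at 7.91 in D to F, 9.09 in A to C and 8.12 at 8 h, and Rdh14 at 8.54, 9.54 and 8.92. Hoxb13, Rdh12 and Atf5 were likewise below 8 h and En2 above it in D to F. Dnmt3b was at 11.55 in D to F against 11.58 at 8 h and 10.71 in A to C, and its D to F change of -0.03 did not pass. Chac1 was at 10.04 in D to F and 12.06 in A to C. Reference genes used for normalization in other assays showed 2 higher and 2 lower of 13, with a median change of 0.02, and 2 higher and 8 lower with a median of -0.16 after median centring. In the A to C set, leaving out single arrays moved the count of genes changed by at least 1 log2 unit between 348 (without 24 h B) and 451.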

How the data were processed

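Transcripts of 30 samples were measured, 1 single-channel array each, and grouped by title and time label into 10 groups of 3. The authors deposited 1 table of log2 expression values, already normalised, without detection calls; limma 3.8.3 is named in the submitters' processing notes, and other steps are not given in the sources used here. Median levels of the 6 arrays compared, over all probe sets, ran from 6.36 to 6.37. Of 45101 probe sets, 64 controls, 9160 without a gene symbol and 932 with more than 1 were dropped, and each of 18193 genes was read by its probe set of highest mean. Group means of all 30 arrays were fitted with limma 3.58.1 (R 4.3.3), and 24 h A to C minus 8 h was tested two-sided with moderated statistics and Benjamini-Hochberg adjustment over all genes (threshold 0.05), first tested on simulated data. Named are the 15 largest rises and falls whose groups do not overlap, members of retinoid, Hox, TALE and pluripotency lists, and up to 8 called members of other lists with the largest changes. The comparison and the gene lists were chosen with earlier results of these data known. Alternatives covered scaling, probe sets, low values, arrays fitted, variance priors, weights and the D to F arrays.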

Additional observations from a re-analysis of the deposited data

How the results depend on the processing

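Of 7154 genes called, the count was 10937 after median centring (5248 of them also called in the main comparison) and stayed within 1.5 times the main count in the other alternatives, and 6050 to 6602 when 1 array was left out. The 422 genes changed by at least 1 log2 unit became 274 when the probe sets of a gene were averaged and 758 with 24 h D to F in place of A to C (348 to 451 when 1 array was left out). With the replicate block on the letters A to C, fitted on the 6 arrays, 6624 genes were called. Deviations of same-letter arrays correlated at -0.04, 0.00 and -0.04, so no shared letter effect was seen. The labels do not say whether arrays of one letter came from one culture, and these correlations cannot show it. Changes of sign are listed only for those of the 218 genes that were called in the main comparison or in the alternative. With 24 h D to F the change took the other sign for Dppa5a (0.10), Crabp1 (0.32), Fabp5 (1.07), Rdh14 (-0.37), Rdh12 (-0.15), Rxrb (0.14), Hoxb13 (-0.38), Hoxc6 (0.39), Hoxc9 (0.31), En2 (0.45), Foxa1 (-0.21), Chac1 (-1.85), Trib3 (-1.58) and Atf5 (-0.16). It did so for Hoxa10 (-0.22) without probe sets of less specific names and for Il6st (-0.020) with the mean of all probe sets; the cause was not tested. Median centring reversed none of the 218 genes that were called before or after it, and ended 8 of their calls. Without detection calls, values near the dim bound have no firm size.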

Other observations

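Of 17 enzymes of cholesterol synthesis, 7 were called higher and none lower at 24 h A to C, with a median change of 0.12. The share called, 41.2%, was near the 39.3% of all genes. After median centring 2 were higher and 4 lower. In 24 h D to F 16 of the 17 were higher than at 8 h, with a median of 0.68. Of 20 genes of glycolysis and hypoxia, 4 were higher and 1 lower (none higher and 3 lower after median centring), 25% called against 39.3% of all genes. The lower 1 in the main comparison was Ldhb, the lactate dehydrogenase subunit that ES cells share with heart muscle. Ldhb read 12.83, 12.99 and 13.14 at 8 h and 11.74, 11.62 and 11.62 at 24 h (-1.33 ± 0.08) and fell on all 4 of its probe sets.

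Of 17 amino acid transporters, 7 were higher and 4 lower. Slc15a1, a transporter of small peptides, changed by -1.34 ± 0.16 and was lower in each of the 3 arrays than in any 8 h array. The median of that list stood at -0.26 at 12 h, -0.38 at 16 h and 0.24 at 24 h relative to 8 h, so these genes also moved back within the day; in 24 h D to F none of the 17 was higher and 8 were lower, with a median of -0.28.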
